A study of Mus musculus with 2 samples.

Results

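6 genes that act on the uracils made by activation-induced cytidine deaminase (AID) were described in cultured mouse B cells, in 1 Nedd4-/- library and 1 Nedd4+/+ library. They were chosen by name: Ung, Apex1 and Apex2 of base excision repair, and Msh6, Pms2 and Exo1 of mismatch repair, 6 genes of 23288 with a row in the deposited tables. Each was read out by its level in RPKM, in which reads are scaled to transcript length and to all mapped reads, and by the signal over the 1 kb upstream of its start. Both libraries came from splenic B cells of fetal liver chimeric mice, whose blood cells descend from transplanted fetal liver, on a B6:129 background backcrossed to B6. Both cultures lasted 72 hours with LPS, a bacterial activator of B cells, and the cytokine IL4, a combination used to drive class switch recombination to IgG1. Ribosomal RNA was depleted from total RNA before sequencing. The labels name the genotype only as Nedd4-/- or Nedd4+/+, with no account of how the gene, a ubiquitin ligase, was inactivated or how many animals gave cells.

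AID turns cytosine into uracil in transcribed immunoglobulin DNA. Ung, a uracil glycosylase, removes the uracil, and the endonuclease encoded by Apex1 nicks the site left behind; Apex2 encodes a related endonuclease. In the other route Msh6 is part of the dimer that recognises the U:G mismatch, Pms2 brings an endonuclease activity, and the exonuclease encoded by Exo1 resects the nicked strand. Breaks made along both routes serve class switching, and repair that copies with errors serves somatic hypermutation.

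The promoters of 4 of the 6 genes were in the RefSeq table used here, build GRCm38.p6, each 300 bases long with 250 before the start and 50 after. They are shown because the upstream kb is one of the 2 readouts and because they differ in their short motifs. Capitals mark any match, on either strand, to the E-box CACGTG, the CCAAT box CCAAT, the GC box GGGCGG or the E2F-type motif TTTCCCGC; in Apex1 an E-box and a GC box lie side by side, and in Msh6 some GC boxes overlap.
Ung, chr5:114130185-114130484, plus strand: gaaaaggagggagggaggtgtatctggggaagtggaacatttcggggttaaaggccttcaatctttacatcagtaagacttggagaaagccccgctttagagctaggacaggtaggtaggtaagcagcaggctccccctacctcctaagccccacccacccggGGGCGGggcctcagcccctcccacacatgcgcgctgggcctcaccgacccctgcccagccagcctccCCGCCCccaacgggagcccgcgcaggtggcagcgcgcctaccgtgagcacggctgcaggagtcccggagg
Apex1, chr14:50924699-50924998, plus strand: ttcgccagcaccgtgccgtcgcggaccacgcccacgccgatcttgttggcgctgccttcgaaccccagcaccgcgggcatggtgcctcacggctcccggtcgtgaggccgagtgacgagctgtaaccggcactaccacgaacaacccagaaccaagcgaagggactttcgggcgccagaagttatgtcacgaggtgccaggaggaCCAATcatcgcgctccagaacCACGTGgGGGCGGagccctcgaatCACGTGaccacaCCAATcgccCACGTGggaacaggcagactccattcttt
Msh6, chr17:87974800-87975099, plus strand: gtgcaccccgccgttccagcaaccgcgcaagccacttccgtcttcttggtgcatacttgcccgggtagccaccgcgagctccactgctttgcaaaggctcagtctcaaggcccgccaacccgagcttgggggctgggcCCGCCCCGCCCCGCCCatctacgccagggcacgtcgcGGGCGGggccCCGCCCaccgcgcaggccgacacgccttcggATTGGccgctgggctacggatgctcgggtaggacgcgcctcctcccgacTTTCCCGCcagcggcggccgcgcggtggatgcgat
Pms2, chr5:143909751-143910050, plus strand: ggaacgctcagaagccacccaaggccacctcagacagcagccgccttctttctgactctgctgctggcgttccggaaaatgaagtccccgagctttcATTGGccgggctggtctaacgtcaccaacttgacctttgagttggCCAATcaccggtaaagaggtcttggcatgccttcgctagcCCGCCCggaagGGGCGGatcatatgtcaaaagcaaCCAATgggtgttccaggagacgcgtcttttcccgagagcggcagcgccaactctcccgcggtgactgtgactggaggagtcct
Of 27025 promoters in the table, 1 per symbol, 7.24% held the E-box, 37.9% the CCAAT box, 35.9% the GC box and 1.11% the E2F-type motif. The Apex1 promoter held 3 E-boxes, 2 CCAAT boxes and 1 GC box. The Msh6 promoter held 5 GC boxes, 1 CCAAT box and 1 E2F-type match. The Pms2 promoter held 3 CCAAT boxes and 2 GC boxes, and the Ung promoter 2 GC boxes. Their GC content was 64.7% for Ung, 63.3% for Apex1, 71.7% for Msh6 and 58.3% for Pms2, against a median of 52.7% over all promoters in the table. None of the 4 held the palindromic NRF1 motif, found in 0.977% of all promoters. A match of letters is a description of the window and not a binding site.

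The libraries held 6.17 gigabases of reads in Nedd4-/- and 8.40 gigabases in Nedd4+/+, recovered from the steps of the deposited values. Nedd4 itself had 1.95 RPKM in Nedd4-/- cells and 7.59 RPKM in Nedd4+/+ cells. The B cell markers Cd79a, Cd79b, Ms4a1, Pax5 and Cd22 ran from 15.6 to 155 RPKM in Nedd4-/- and from 13.9 to 183 RPKM in Nedd4+/+. Markers of other cells were low: summed, 5 T cell genes gave 1.33 RPKM in Nedd4-/- and 0.503 in Nedd4+/+, 4 myeloid genes 2.44 and 1.31, 3 erythroid genes 1.43 and 2.40, and 2 natural killer genes 0.276 and 0.103, with no marker at 0. Xist, the RNA of the inactive X chromosome, was at 0.0958 RPKM in Nedd4-/- and 23.7 RPKM in Nedd4+/+, while the Y-linked genes Ddx3y, Eif2s3y, Uty and Kdm5d ran from 3.95 to 18.8 RPKM in Nedd4-/- and from 1.18 to 5.14 RPKM in Nedd4+/+. These sex-linked levels differed between the same libraries as the genotype, and sex and genotype cannot be told apart in any difference below. With 1 library per genotype no difference has a replicate check, no p-value was computed, and the intervals given are 95% intervals of counting error only.

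The 6 chosen genes of base excision and mismatch repair were all expressed in both libraries, and none of the 6 differed 2-fold between them. The gene levels of all 6 were lower in the Nedd4-/- library, between 71.2% (Msh6) and 86.9% (Apex2) of the Nedd4+/+ level. Such a direction was the common one, since 92.7% of the 9405 genes that averaged at least 1 RPKM, called tested genes here, were lower in Nedd4-/-, with a median log2 ratio of -0.31 on the RPKM + 1 scale; over all genes without a minimum level the median was 0.02. Ratios below are on that scale, which understates the difference of low genes, and a relative value is a ratio minus that median. Every counting interval of a ratio below is without a pseudocount, so it is not centred on the ratio beside it. Ung, Apex2, Pms2 and Exo1 lay above the median of all tested genes, whereas Apex1 and Msh6 lay below it. In bulk RNA, fewer cells that express a gene and less RNA per cell cannot be told apart.

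Ung, the uracil glycosylase, was at 4.47 RPKM in Nedd4-/- and 5.24 RPKM in Nedd4+/+. Its log2 ratio was -0.19, or 0.12 relative to the median. Without a pseudocount the counting interval ran from -0.57 to 0.11 and so held 0. The annotated coding sequence is 885 nt and the transcript has 6 exons. About 121 read pairs in Nedd4-/- and 193 in Nedd4+/+ would cover the coding sequence at these levels. The interval is on that coding length. Over the whole transcript, annotated at 2136 nt, it would be narrower, and whether it would still hold 0 was not computed.

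Apex1, the main apurinic site endonuclease, was the highest of the 6. It stood at 28.9 RPKM in Nedd4-/- and 37.6 RPKM in Nedd4+/+, above 93.9% and 93.7% of tested genes in those libraries. The log2 ratio was -0.37, or -0.06 relative to the median, with a counting interval of -0.50 to -0.26. In the GRCm38 annotation the end of Apex1 overlaps Pip4p1 on the other strand, listed as Tmem55b in the files, at 12.4 RPKM in Nedd4-/- and 16.2 RPKM in Nedd4+/+. Whether the authors' counting used strand is not given in the sources used here, so reads in the overlap are uncertain.

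Apex2, the second endonuclease, was the lowest of the 6. Its level was 2.02 RPKM in Nedd4-/- and 2.33 RPKM in Nedd4+/+, a log2 ratio of -0.14 and a relative value of 0.17, with a counting interval of -0.58 to 0.18. Its ratio was the highest of the 6 and lay above that of 80.3% of tested genes. The gene is on the X chromosome, where 280 tested genes other than Xist and Tsix had a median log2 ratio of -0.32, and 234 of these had a lower ratio than Apex2. Low values were shifted between the libraries: the 12310 genes with a mean under 0.5 RPKM had a median difference, Nedd4-/- minus Nedd4+/+, of 0.110 RPKM. The part of that shift in the ratio of Apex2 was not tested. By whole annotated gene bounds Apex2 also overlaps Pfkfb1, a glycolytic regulator, and Alas2, an enzyme of haem synthesis, on the other strand. Pfkfb1 lies upstream of the start of the Apex2 transcript used here and does not overlap that transcript. Pfkfb1 was low, at 0.382 RPKM in Nedd4-/- and 0.643 RPKM in Nedd4+/+. Alas2 was also low, at 1.01 RPKM in Nedd4-/- and 0.909 RPKM in Nedd4+/+.

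Msh6, of the mismatch recognition dimer, had the lowest ratio of the 6. It was at 15.4 RPKM in Nedd4-/- and 21.6 RPKM in Nedd4+/+, a log2 ratio of -0.46 and a relative value of -0.15. The counting interval of -0.57 to -0.41 excluded both 0 and -0.39, the median ratio of all tested genes without a pseudocount. For the other 5 genes the interval held that median. The Msh6 interval was the narrowest of the 6, at about 1913 read pairs in Nedd4-/- and 3662 in Nedd4+/+. Its upper end was 0.02 below the median. The share of all tested genes whose interval misses the median was not computed. The ratio was still inside the central range of all genes, since 23.6% of tested genes had a lower one. Its 3' end overlaps Fbxo11, a gene of an F-box protein, at 6.54 RPKM in Nedd4-/- and 7.81 RPKM in Nedd4+/+.

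Pms2, of the endonuclease step of mismatch repair, was at 5.97 RPKM in Nedd4-/- and 7.26 RPKM in Nedd4+/+. The log2 ratio was -0.24, or 0.07 relative to the median, and the counting interval ran from -0.45 to -0.11. It overlaps Rsph10b in the GRCm38 annotation, a gene not analysed here. Exo1, the resecting exonuclease, was at 4.35 RPKM in Nedd4-/- and 5.45 RPKM in Nedd4+/+, a log2 ratio of -0.27 and a relative value of 0.04, with a counting interval of -0.53 to -0.13. Both lay near the middle of all genes, with 63.1% of tested genes below Pms2 in ratio and 58.0% below Exo1. Counting intervals, taken on the coding length, lay below 0 for 4 of the 6 genes, Apex1, Msh6, Pms2 and Exo1. This is before the shift of all genes is taken off. The share of all tested genes with such an interval was not computed. Ung and Apex2, whose intervals held 0, had the fewest read pairs of the 6.

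**Figure D1:**
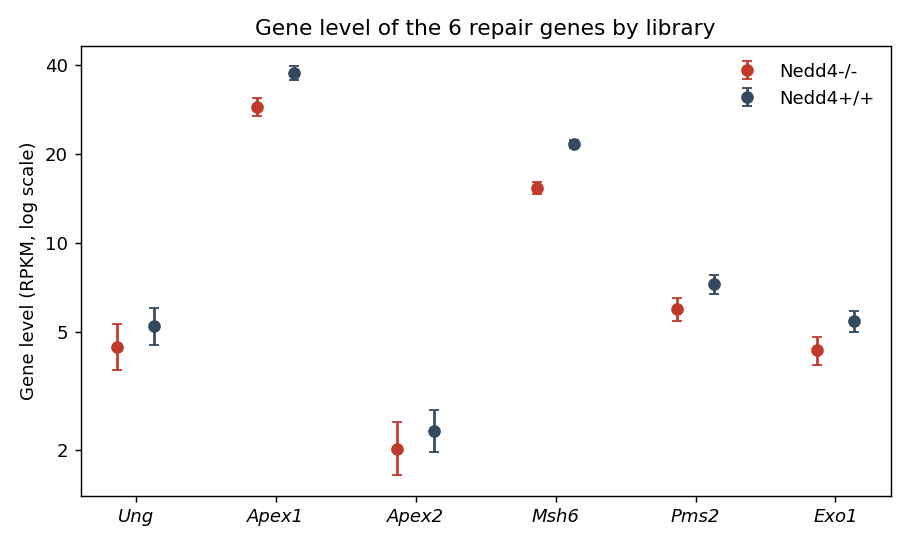
Gene level in RPKM on a log axis for each repair gene, with the Nedd4-/- library left of the Nedd4+/+ library; bars are exact 95% Poisson intervals of counting error. Apex1 and Msh6 stand above the other 4 genes in both libraries, Apex2 is lowest, and each gene is lower in Nedd4-/-.

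The order of levels, per length, was nearly the same in both libraries. In Nedd4-/- it ran Apex1, Msh6, Pms2, Ung, Exo1 and Apex2, and in Nedd4+/+ Apex1, Msh6, Pms2, Exo1, Ung and Apex2. Ung and Exo1 were the only neighbours whose counting intervals overlapped, in both libraries, so their change of place is within counting error. The Apex1 level was 14.3-fold that of Apex2 in Nedd4-/- and 16.1-fold in Nedd4+/+. The Msh6 level was 2.58-fold that of Pms2 in Nedd4-/- and 2.98-fold in Nedd4+/+, and 3.54-fold that of Exo1 in Nedd4-/- and 3.96-fold in Nedd4+/+.

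None of the 6 genes passed the rule of at least 2-fold, against 1.29% of all tested genes, made up of 0.138% higher and 1.15% lower in Nedd4-/-. At these shares a count of 0 among 6 genes is near the background. The median log2 ratio of the 6 was -0.26, or 0.05 relative to all tested genes, whose central 90 percent ran from -0.74 to 0.06. All 6 genes fell inside that range.

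**Figure D2:**
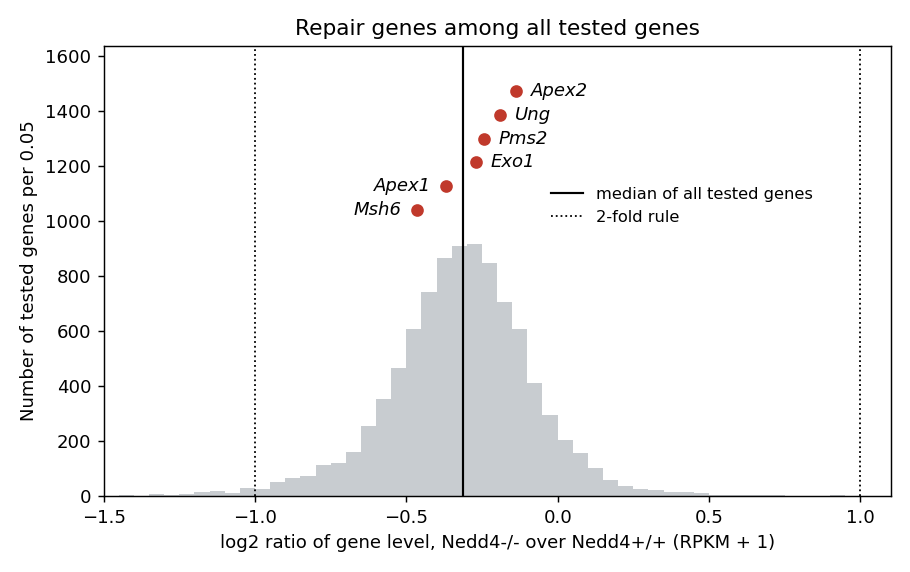
Histogram of the log2 ratio of gene level, Nedd4-/- over Nedd4+/+ with 1 RPKM added, for tested genes in bins of 0.05, with the 6 repair genes as red points above it at their own ratios; their height has no meaning. The points run from -0.46 (Msh6) to -0.14 (Apex2) around the median of -0.31 (solid line), inside the dotted lines of the 2-fold rule; 25 tested genes lie outside the range drawn.

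The genes nearest to each member in level, by Euclidean distance on log2(RPKM + 1) over the 2 libraries, are given for orientation. Those nearest to Ung were Cstf3, of messenger RNA 3' end cleavage, and D11Wsu99e, at distances of 0.0024 and 0.011. St13 and Csnk2b, a subunit of casein kinase 2, were nearest to Apex1 (0.016 and 0.031), and Fam117a and Med31, of the Mediator complex, to Apex2 (0.0068 and 0.0077). Ndufv1 and Etfb, of mitochondrial electron transfer, were nearest to Msh6 (0.013 and 0.017). Melk, a mitotic kinase, and Gramd3 were nearest to Pms2 (0.011 and 0.013), and Hsf1, the heat shock factor, and Arid2, of a chromatin remodeller, to Exo1 (0.0069 and 0.0086). With 2 libraries this likeness rests on a level and a ratio alone.

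Genes of the same pathways, of AID partners and of S phase did not pass the rule either: over 6 lists, 0 of 93 tested entries were 2-fold higher or lower on the RPKM + 1 scale. The background is again 1.29%. Of 21 other base excision genes 18 were tested, 10 above and 8 below the median of all genes, with a median log2 ratio of -0.26. The furthest was Tdg, a thymine and uracil glycosylase, at 1.48 RPKM in Nedd4-/- and 3.91 RPKM in Nedd4+/+, a log2 ratio of -0.98. It was past 2-fold in the deposited values, and passed the rule with 0.1 RPKM added in place of 1 RPKM, and a copy, Tdg-ps, is annotated in the mouse genome, so its reads may be shared. Xrcc1, the scaffold of single-strand break repair, was at 6.20 RPKM in Nedd4-/- and 10.2 RPKM in Nedd4+/+ (-0.64). Parp1, which senses DNA breaks, had a log2 ratio of -0.58 and Fen1, the flap endonuclease, -0.53.

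Of 18 other genes that serve mismatch repair all were tested, 10 above and 8 below the median of all genes, with a median log2 ratio of -0.27. Furthest from a log2 ratio of 0 were Pold2 and Pold1, subunits of DNA polymerase delta, which refills the resected strand. Pold2 was at 12.1 RPKM in Nedd4-/- and 21.3 RPKM in Nedd4+/+ (-0.78). Pold1 was at 9.74 RPKM in Nedd4-/- and 15.3 RPKM in Nedd4+/+ (-0.60). The other listed subunits, Pold3 and Pold4, had log2 ratios of -0.22 and -0.19, above the median of all genes. Rpa3, at a relative value of 0.33, lay further from that median than Pold1, at -0.29. Rfc1 and Rfc3, of the clamp loader, had log2 ratios of -0.58 and -0.38. Of the other listed Rfc genes, Rfc4 was at -0.36, Rfc2 at -0.31 and Rfc5 at -0.29, with only Rfc5 above the median. Lig1, the replicative ligase, is in both the base excision and the mismatch repair list.

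Of 9 genes listed for uracil and dUTP control, 7 had a row and were tested. Their median was -0.35, with 3 above and 4 below the median of all genes. Samhd1, a dNTP hydrolase, was at 13.9 RPKM in Nedd4-/- and 21.6 RPKM in Nedd4+/+ (-0.61). Vprbp, a substrate receptor of a ubiquitin ligase, had a log2 ratio of -0.57, Dctd, a deoxycytidylate deaminase, -0.41, and Tyms, thymidylate synthase, -0.35. Lesion bypass genes had a median of -0.19 over 13 genes, of which 10 lay above the median of all genes. Rad18, the ligase that ubiquitinates PCNA, was at -0.45 and Usp1, which reverses it, at -0.43. The polymerase gene Polq was at -0.40 and Hltf at -0.30. Furthest from the median of all genes in this list was Ube2a, at a relative value of 0.47.

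Partners of the AID protein had a median of -0.45 over 13 genes, with 5 above and 8 below the median of all genes. Rnf126, a ubiquitin ligase, was at 4.70 RPKM in Nedd4-/- and 8.90 RPKM in Nedd4+/+ (-0.80). The elongation factor gene Supt5h was at -0.73, the chaperone gene Hsp90ab1 at -0.60 and the splicing-associated gene Ctnnbl1 at -0.60. Furthest from the median of all genes was Eef1a1, at a relative value of 0.49, with Rnf126 at -0.48. S phase genes had a median of -0.40 over 24 genes, with 5 above and 19 below the median of all genes. Mki67, a marker of dividing cells, was at 38.0 RPKM in Nedd4-/- and 65.3 RPKM in Nedd4+/+ (-0.77), Uhrf1 at -0.63, and the replicative helicase genes Mcm3 and Mcm2 at -0.60 and -0.58. Relative to all tested genes the S phase median was -0.08 and that of the AID partners -0.14. The other list medians were 0.05 for base excision, 0.04 for mismatch repair, 0.12 for lesion bypass and -0.03 for uracil and dUTP control.

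**Figure D3:**
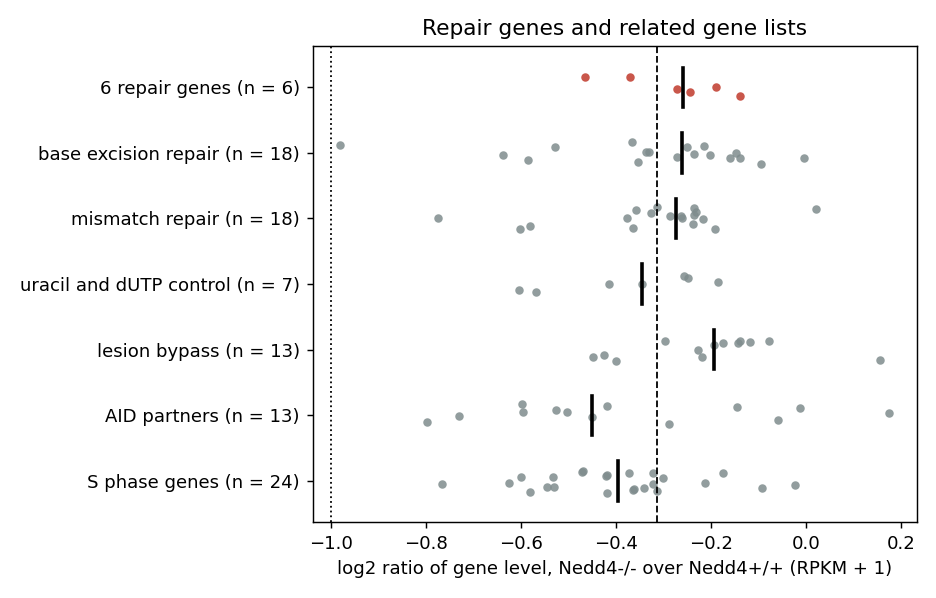
Log2 ratio of gene level, Nedd4-/- over Nedd4+/+ with 1 RPKM added, for the 6 repair genes (red) and 6 related lists (grey); each point is a gene, short black bars are list medians, the dashed line is the median of all tested genes and the dotted line the 2-fold rule. Every list median lies between -0.45 and -0.19, and Tdg, at -0.98, is the point nearest to the 2-fold line.

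The kb upstream of each gene was low for all 6 and spread widely among them. In the Nedd4-/- library its level ran between 0.225 RPKM (Msh6) and 1.86 RPKM (Pms2), and in the Nedd4+/+ library between 0.121 RPKM (Msh6) and 2.45 RPKM (Pms2). No window passed the 2-fold rule among the 5 with a mean of 0.2 RPKM or more, on a log2 scale with 0.1 RPKM added, against 20.6% of 11837 tested windows, made up of 19.8% higher and 0.794% lower in Nedd4-/-. All 6 counting intervals held 0. The upstream level was higher in Nedd4-/- for 71.2% of tested windows, with a median log2 ratio of 0.41 and a median difference of 0.133 RPKM.

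The windows of Apex1, Pms2 and Apex2, each shared with a neighbouring gene, were lower in Nedd4-/-, though by no more than counting error allows around 0. Shared windows as a class were not lower at all levels, as given below. Against 0.54, the median ratio of all tested windows without a pseudocount, the intervals of Apex1 (-1.26 to 0.03) and Pms2 (-0.89 to 0.09) lay below and that of Apex2 (-1.42 to 0.74) held it. Relative to the median on the scale with 0.1 RPKM added, the ratios were -0.99 for Apex1, -0.79 for Pms2 and -0.67 for Apex2. Both medians are over tested windows of all levels, whereas the Apex1 and Pms2 windows averaged 1.31 and 2.16 RPKM. Among windows of at least 1 RPKM the median log2 ratio with 0.1 RPKM added was lower. It was -0.27 with a coding start on the other strand and -0.26 without. Over all levels, 1181 windows with such a start had a median log2 ratio of -0.0011, and 8479 without had 0.51. These 2 classes also differed in level, with medians of 0.960 and 0.325 RPKM. Together they do not take in all of the 11837 tested windows. Whether sharing has a part in the direction of the 3 windows was not tested. The split was made after the values were seen. In the GRCm38 annotation the start of a gene on the other strand lies inside the upstream kb of Apex1 (Osgep, a tRNA modification gene), Pms2 (Aimp2, of the tRNA synthetase complex) and Apex2 (Pfkfb1). The Pms2 window was at 1.86 RPKM in Nedd4-/- and 2.45 RPKM in Nedd4+/+, a log2 ratio of -0.38, and Aimp2 itself was at 10.03 RPKM in Nedd4-/- and 11.2 RPKM in Nedd4+/+. The Apex1 window was at 1.04 RPKM in Nedd4-/- and 1.59 RPKM in Nedd4+/+, a log2 ratio of -0.57, lower than that of all but 5.87% of tested windows. Osgep was at 1.79 RPKM in Nedd4-/- and 2.52 RPKM in Nedd4+/+. Read from its other side, the kb upstream of Osgep, which takes in the start of Apex1, stood at 11.9 RPKM in Nedd4-/- and 16.4 RPKM in Nedd4+/+. The Apex2 window was at 0.426 RPKM in Nedd4-/- and 0.527 RPKM in Nedd4+/+ (-0.25). Without strand, reads of these windows cannot be assigned to either gene.

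The windows of the other 3 genes were higher in Nedd4-/- as deposited, with intervals that held 0. No annotated coding start lies inside those of Ung and Exo1. For Msh6 the nearest upstream gene, Rpl36-ps4 on the same strand, had no deposited values, and whether it reaches the window was not recorded. Relative to the median of all tested windows Ung was at -0.10, below it, Msh6 at 0.14 and Exo1 at 0.56. The Ung window was at 0.843 RPKM in Nedd4-/- and 0.659 RPKM in Nedd4+/+, a log2 ratio of 0.31, and the nearest gene upstream, Alkbh2, a DNA dealkylase, was at 1.65 RPKM in Nedd4-/- and 1.41 RPKM in Nedd4+/+. The Exo1 window was at 0.355 RPKM in Nedd4-/- and 0.132 RPKM in Nedd4+/+, a log2 ratio of 0.97. It rested on 10.8 read pairs in Nedd4-/- and 5.5 in Nedd4+/+, with a counting interval without pseudocount of -0.24 to 3.04, and with 0.02 RPKM added the ratio was 1.30, past 2-fold. The nearest gene upstream of Exo1, Wdr64, was at 0.132 RPKM in Nedd4-/- and 0.0902 RPKM in Nedd4+/+. The Msh6 window, below the minimum for testing, was at 0.225 RPKM in Nedd4-/- and 0.121 RPKM in Nedd4+/+, or 6.88 and 5.03 read pairs in those libraries. Its difference of 0.104 RPKM was below the median difference of all tested windows, and those of Ung (0.184 RPKM) and Exo1 (0.223 RPKM) were above it.

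As a share of the gene level, the upstream kb gave 31.2% in Nedd4-/- and 33.7% in Nedd4+/+ for Pms2, and 21.1% and 22.6% in those libraries for Apex2. For Ung it was 18.9% in Nedd4-/- and 12.6% in Nedd4+/+, and for Apex1 3.59% and 4.23% in those libraries. Exo1 gave 8.17% in Nedd4-/- and 2.43% in Nedd4+/+, and Msh6, the second highest of the 6 in gene level, the lowest share, 1.46% in Nedd4-/- and 0.560% in Nedd4+/+.

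**Figure D4:**
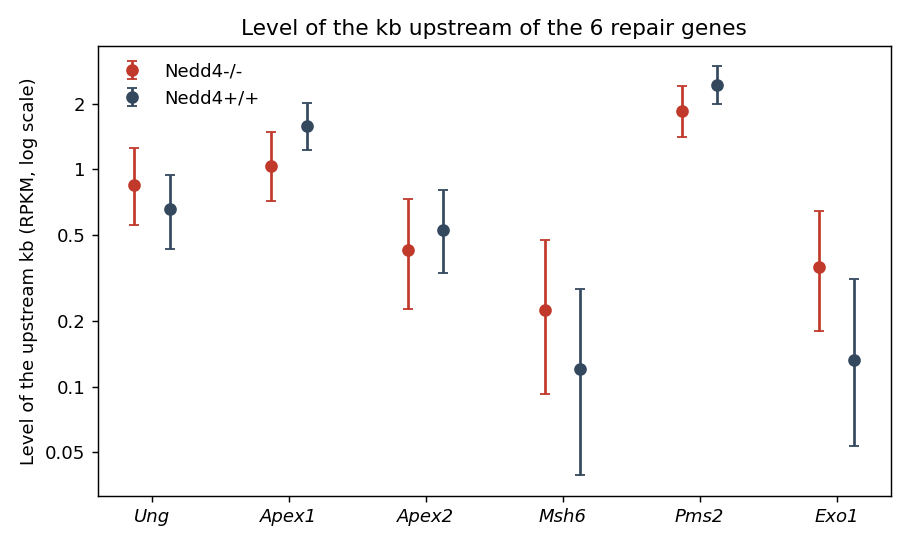
Level of the kb upstream of each repair gene in RPKM on a log axis, with the Nedd4-/- library left of the Nedd4+/+ library; bars are exact 95% Poisson intervals of counting error. Apex1, Apex2 and Pms2 are lower in Nedd4-/- and Ung, Msh6 and Exo1 higher, with bars that overlap between the libraries for each gene.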

How the data were processed

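RNA was sequenced from 1 Nedd4-/- and 1 Nedd4+/+ culture of splenic B cells, grouped by title. Per the submitters' processing notes the tools were TopHat and Cufflinks and the build mm9, without versions or roles; how strand and reads with several matches were handled was not stated. The authors deposited gene values in RPKM, for 1 RefSeq transcript per line, per the file headers. The second deposited column is a ratio, the level of the upstream kb divided by the gene RPKM plus 0.0001: multiplied back, it gave whole numbers of read bases within 0.05 bases in 100% of 20180 low windows in Nedd4-/- and 99.99% of 19058 in Nedd4+/+. The design had assumed a level there, and this product is the upstream level used. RPKM is scaled to all mapped reads, so a different share of reads outside genes shifts every gene.

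Log2 ratios added 1 RPKM (genes, minimum mean 1 RPKM) or 0.1 RPKM (windows, minimum mean 0.2 RPKM), with a rule of at least 2-fold. Counting intervals are exact 95% Clopper-Pearson intervals for ratios and Poisson intervals for levels, on read pairs of 101-nt reads over the coding length in GENCODE, shorter than the transcript and so giving wider intervals; reads are not independent molecules. All calculations used Python 3.11.15 with scipy 1.17.1. The steps of read bases, the gene log2 ratios with the 2-fold rule and the intervals of ratios were tested on simulated data. That simulation held counting error only, and the other calculations were not tested in this way.

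Members, lists and rules were chosen with earlier results of these data known. Named are the 6 members, in each list up to 4 genes furthest from a log2 ratio of 0, and Nedd4. The nearest upstream genes and 2 genes nearest in level to each member are also named. Since most tested genes lay below 0, distance from 0 mostly picks lower genes. Eef1a1 and Ube2a were added as furthest from the median of all genes in their lists. They, Pold3, Pold4, Rfc2, Rfc4, Rfc5, Rpa3 and the overlapping genes were named after their values were seen. One B cell marker of the planned check is not reported here. The GRCm38 annotation served for names, neighbours, coding lengths, exon numbers and promoter sequences; no coordinates of the files were used with it.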

Additional observations from a re-analysis of the deposited data

How the results depend on the processing

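None of the 6 genes passed the 2-fold rule under any gene-level alternative: 0.1 RPKM added, no pseudocount, no minimum level, a minimum of 5 RPKM (which left 3 of them), or ratios relative to the median of all tested genes. The number of all genes past the rule did move, to 254 with 0.1 RPKM added, 288 without pseudocount and 47 relative to the median, against 121 as reported. With 0.1 RPKM added 1 base excision gene passed, Tdg, and the other list counts stayed at 0. Upstream, 1 of the 6 windows passed with 0.02 RPKM added, that of Exo1. All windows past the rule numbered 14 with 1 RPKM added, 3663 with 0.02 RPKM added, 4607 without a minimum and 1441 relative to the median, against 2437 as reported. On the deposited ratio with 0.1 added none of the 6 passed; without a pseudocount, an alternative chosen after seeing the data, 1 of the 5 tested windows passed (Exo1, 3.37-fold) and 4448 of all windows, and the untested Msh6 window was 2.62-fold higher in Nedd4-/-. All 6 kept their direction in both. Relative to the median of all windows the Ung ratio was -0.10, on the other side of 0, and that of Apex1 was -0.99. No paired analysis was possible because each genotype has 1 library, and for the same reason no library could be left out. The median log2 ratio of genes was 0.02 without a minimum level, against -0.31 as reported, so values relative to it depend on that minimum. Depth limits the windows: 1 read pair is worth 0.0328 RPKM in Nedd4-/- and 0.0241 RPKM in Nedd4+/+.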

Other observations

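The upstream windows of Apex1 and Pms2, shared with a divergent neighbour and above 1 RPKM on average, were lower in Nedd4-/-, and windows at that level were mostly lower whether shared or not. Among windows that averaged at least 1 RPKM, 572 with a divergent coding start inside them in the GRCm38 annotation had a median log2 ratio of -0.27, and 929 without one had -0.26; 23.4% and 22.7% of these windows were higher in Nedd4-/-. Among windows under 1 RPKM, 609 with a divergent start had a median of 0.38 and 7550 without one had 0.60, with 74.9% and 83.4% higher in Nedd4-/-. The Apex2 window, with a divergent start and a mean of 0.477 RPKM, was lower in Nedd4-/- (-0.25), unlike most of its class. The Exo1 and Ung windows, at means of 0.244 and 0.751 RPKM, belong to the class without one. This split was made after the values were seen and does not take in all tested windows.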
